A study of Macaca fascicularis with 4 samples.

Results

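The PDGF ligand genes PDGFA, PDGFB and PDGFC and the PDGF receptor genes PDGFRA and PDGFRB were followed through 4 droplet single-cell RNA libraries of cynomolgus monkey (Macaca fascicularis) embryos. They are 5 of 26222 gene rows with a name, each found once under its symbol in every library and chosen by symbol alone. Their transcripts were counted over whole libraries and in barcodes that held a UMI of 1 of 6 marker genes. The marker genes were ACTA2 (smooth muscle actin), PECAM1 (an endothelial adhesion molecule), PAX1 (a sclerotome transcription factor), KRT19 (an epithelial keratin), LHX9 (a transcription factor of the gonadal ridge) and EPCAM (an epithelial adhesion molecule). A barcode stands for 1 captured cell, and a UMI (unique molecular identifier) for 1 captured transcript.

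Platelet-derived growth factors are secreted dimers that signal through a pair of receptor tyrosine kinases, which dimerise when bound. PDGF-A and PDGF-C act mainly through PDGFRα, and PDGF-B binds both PDGFRα and PDGFRβ. In development the ligands are typically made by epithelium, endothelium or neurons, and the receptors by neighbouring mesenchyme. PDGF-B from endothelium is known for recruiting pericytes and the mesangial cells of the kidney glomerulus, and PDGFRα for its part in mesenchyme and in the interstitium of the developing gonad.

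Each stage was represented by 1 library of untreated embryonic tissue. Embryonic day 24 (E24, Carnegie stage 11) was trunk without yolk sac, amnion, heart region and posterior growth zone, and its title lists a pair of embryo codes. E28 (stage 13) and E31 (stage 14) were urogenital ridge with mesonephros, coelomic epithelium and part of the mesentery. E37 (stage 18) came mostly from the gonadal ridge, along with pieces of mesonephros, mesentery and what was taken to be the adrenal. A difference between stages is therefore a difference between 2 libraries. Stage and dissection cannot be told apart, except that E28 and E31 were dissected alike. Which chemistry version each library had is not given, so chemistry may also differ between any of them, E28 and E31 included. In summed UMIs, fewer cells of a type and less RNA per cell cannot be told apart either. With 1 library per stage there is no replicate spread and no test, and all 95% intervals below cover counting error only.

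The libraries held 10639, 5028, 6661 and 5298 barcodes in stage order, with totals of 115332663, 62477350, 72233442 and 40243286 UMIs. After filtering, 10639, 4964, 6654 and 5289 barcodes were used. The median barcode held between 6672.5 UMIs at E37 and 11391 at E28, so a low transcript was missed most often at E37. Pairs of libraries shared between 37 and 111 barcode sequences. Levels are given in CPM, which scales the UMIs of a gene to the summed UMIs of the same barcodes. Because only transcript ends were captured, levels of different genes were not compared with each other. The marker genes differed in what they marked. KRT19 was found in 62.85% of barcodes at E24 and in 17.1% to 20.6% later, and EPCAM in 42.9%, 32.2%, 30.8% and 3.25%, so neither marked a single cell class.

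PDGFA encodes the ligand of PDGFRα that is typical of epithelium. Its level was 17.5 CPM (16.8 to 18.3) at E24, 29.4 (28.04 to 30.8) at E28, 25.6 (24.5 to 26.8) at E31 and 5.28 (4.59 to 6.04) at E37. The E37 library was the low one, 4.86-fold below E31 (4.21 to 5.63). A UMI of PDGFA was found in 12.6%, 22.6%, 19.4% and 3.50% of barcodes, and after each barcode was thinned to 2000 UMIs in 3.31%, 5.44%, 5.425% and 0.983%. The drop at E37 thus stood at equal depth as well.

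PDGFC encodes a ligand of PDGFRα that is secreted in a latent form and activated by cleavage. Its level was 19.8 CPM (19.03 to 20.7) at E24, 31.2 (29.8 to 32.6) at E28, 30.5 (29.2 to 31.8) at E31 and 34.9 (33.1 to 36.7) at E37. E24 was the lowest library and the other 3 lay close together, with ratios of 0.979, its interval spanning 1, and 1.14 between neighbours. PDGFC was found in 16.5%, 27.7%, 24.4% and 20.6% of barcodes, and in 3.90%, 6.205%, 6.12% and 7.45% after thinning.

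PDGFB encodes the ligand of both receptors. It gave 74, 226, 122 and 151 UMIs, or 0.642 CPM (0.504 to 0.805) at E24, 3.69 (3.23 to 4.21) at E28, 1.69 (1.40 to 2.02) at E31 and 3.76 (3.18 to 4.41) at E37. The order of libraries was E24 lowest, then E31, with E28 and E37 highest and overlapping in their intervals. PDGFB was 5.75-fold higher at E28 than at E24 (4.41 to 7.59), 2.18-fold lower at E31 than at E28 (1.74 to 2.74) and 2.22-fold higher at E37 than at E31. Only 0.564%, 3.75%, 1.61% and 2.25% of barcodes held a UMI of it, and 0.103%, 0.806%, 0.361% and 0.624% after thinning. Transcripts that cells make quickly on stimulation or stress ran in the same order of stages. EGR1, FOS and JUN stood at 24.3, 70.1 and 50.9 CPM at E24, at 189, 403 and 262 at E28, at 32.3, 81.6 and 120.2 at E31 and at 257, 642 and 419 at E37. Their part in the PDGFB levels was not tested.

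PDGFRA, the receptor of PDGF-A and PDGF-C, was lowest at E24 with 5.17 CPM (4.76 to 5.60). It stood at 5.93 (5.34 to 6.57) at E28, 6.475 (5.90 to 7.09) at E31 and 9.61 (8.67 to 10.6) at E37. From E24 to E31 the steps were small, with ratios of 1.15 (1.005 to 1.31) and 1.09 (0.9497 to 1.26), and E37 was 1.48-fold above E31 (1.29 to 1.70). PDGFRA was found in 5.235%, 6.285%, 6.27% and 6.64% of barcodes, and in 0.912%, 1.47%, 1.44% and 2.04% after thinning.

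PDGFRB encodes the receptor best known from pericytes and mesenchyme. Its level was 17.3 CPM (16.6 to 18.1) at E24, 32.8 (31.4 to 34.3) at E28, 27.4 (26.2 to 28.7) at E31 and 77.7 (75.04 to 80.5) at E37. E37 stood apart from the other 3 libraries and was 2.83-fold above E31 (2.68 to 3.00). PDGFRB was found in 15.55%, 25.7%, 21.7% and 37.9% of barcodes, and in 3.36%, 6.33%, 5.86% and 15.8% after thinning, so the E37 library was highest both ways.

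**Figure D1:**
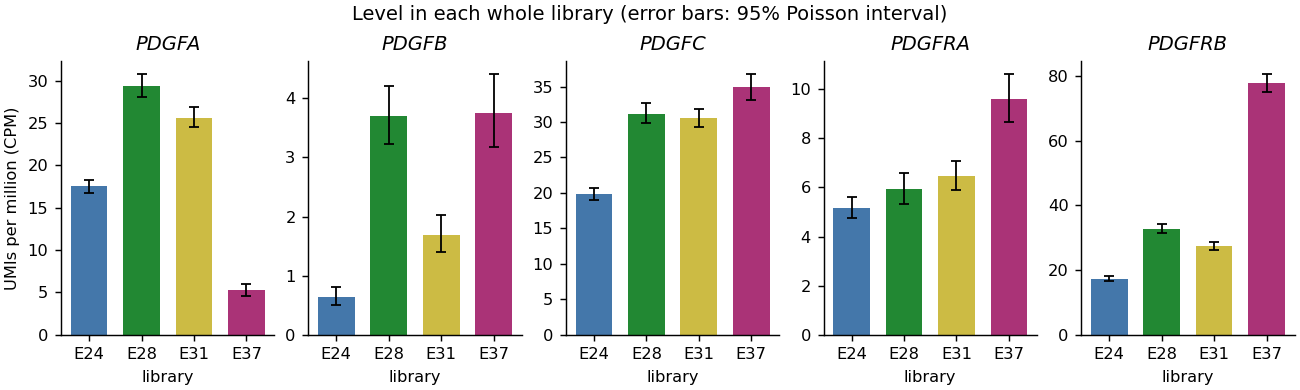
Level of each gene in the 4 whole libraries, in CPM, each panel with its own axis from 0. Bars are the summed level, 1 library each, and error bars are exact Poisson 95% intervals. PDGFA was lowest at E37 with 5.28 CPM, and PDGFRB was highest there with 77.7 CPM.

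As a reference for free RNA, the same genes were counted in barcodes with at least 3 erythroid or 3 macrophage markers and no UMI of the 6 marker genes. There were 16 to 44 erythroid barcodes per library, with median depths of 12937.5 to 25118.5 UMIs, and 19 to 61 macrophage barcodes, with medians of 8335 to 15657. PDGFRB was found in 6.67%, 0%, 0% and 4.55% of erythroid barcodes and in 0%, 0%, 7.50% and 3.28% of macrophage barcodes. PDGFRA was found in at most 3.33% of either type, in 1 barcode, and PDGFC in at most 2.27% of erythroid barcodes. In macrophage barcodes PDGFC was found in 0%, 10.5% (1.30% to 33.1%), 5% and 6.56%. The shares of both receptors and PDGFC in these red cells were below those of the whole libraries, although the red cells were deeper, but with so few barcodes some intervals reach the library share. For PDGFRB at E24 the interval was 0.818% to 22.1%, against 15.55% in the library. PDGFA reached 13.6% of erythroid barcodes at E31, in 3 of 22, and was at 0 in the other 3 libraries. PDGFB was found in 3 of 19 macrophage barcodes at E28 (15.8%, 3.38% to 39.6%), an interval that includes its 3.75% in the library. Taken as 3 counts of the total, a count of 0 in these small groups allows a share of up to 18.75% in the smallest and 4.92% in the largest.

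A gene counted as past the fold at 2-fold or more, among genes with at least 50 UMIs in the groups compared. From E24 to E28, 1 of 5 PDGF genes was past it upward (PDGFB) and 0 downward, where 16.4% of all genes tested were higher and 6.06% lower. From E28 to E31, 0 were higher and 1 lower (PDGFB), against 1.23% and 3.06% of all genes. From E31 to E37, 2 were higher (PDGFRB and PDGFB) and 1 lower (PDGFA), against 8.78% and 8.05%. With 5 genes these counts were read as descriptions of each gene. PDGFB alone passed the fold in the pair of libraries that share a dissection.

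Barcodes with EPCAM carried more PDGFA and less of both receptors than the remaining barcodes of their library, at every stage. PDGFA stood at 26.5 CPM inside and 9.09 outside at E24, 49.4 and 18.9 at E28, 44.4 and 15.2 at E31, and 22.6 and 4.52 at E37. The ratios were 2.92 (2.64 to 3.22), 2.62 (2.38 to 2.88), 2.92 (2.66 to 3.21) and 4.99 (3.42 to 7.12), with PDGFA found in 19.4%, 39.04%, 38.03% and 18.6% of EPCAM barcodes and in 7.43%, 14.7%, 11.1% and 2.99% of the others. In barcodes with EPCAM and none of the other 5 marker genes the ratio was 1.78 at E24 and 3.05 at E37. The groups were apart in all 4 libraries, and PDGFA was the 1 PDGF gene of 5 past the fold upward in each, beside 5.57%, 8.32%, 8.66% and 6.11% of all genes.

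EPCAM barcodes made up 42.9% of the E24 library but held 73.3% of its PDGFA UMIs. At E28 and E31 they held 57.9% and 61.98% of PDGFA UMIs. At E37, where they were 172 barcodes or 3.25%, they held 17.9%. From E31 to E37 PDGFA was lower inside EPCAM barcodes (1.97-fold, ratio 0.509, 0.358 to 0.703) and outside them (3.36-fold, 2.84 to 3.99), so the lower level at E37 was present in both groups.

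PDGFRA was 2.03-fold lower in EPCAM barcodes at E24, 9.50-fold at E28 (5.99 to 15.98), 7.85-fold at E31 (5.45 to 11.7) and 2.77-fold at E37 (1.26 to 7.60). PDGFRB was 1.35-fold, 3.997-fold, 4.63-fold and 2.93-fold lower. The share of all genes past the fold downward was 1.83% at E24, where PDGFRA alone passed it, and 6.68%, 6.82% and 10.3% later, where both receptors did. Other epithelial markers were higher in EPCAM barcodes, counted at 2-fold or more as for all marker lists below (9 of 10, 7 of 9, 8 of 9 and 4 of 4 tested). Mesenchyme markers summed to 1449 CPM inside and 1370 outside at E24, 262 and 1093 at E28, 346 and 962 at E31, and 1449 and 2667 at E37. EPCAM barcodes were thus poor in mesenchyme transcripts from E28 on and not at E24, and the part of this in the receptor ratios was not tested.

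PECAM1 barcodes held 43, 61, 53 and 36 UMIs of PDGFB. PDGFB stood at 10.3 CPM inside and 0.279 outside at E24, 14.7 and 2.89 at E28, 10.3 and 1.03 at E31, and 15.4 and 3.04 at E37. The ratios were 36.8 (22.6 to 60.4), 5.07 (3.72 to 6.85), 10.01 (6.86 to 14.5) and 5.06 (3.38 to 7.41). PDGFB was higher in PECAM1 barcodes in every library, and the level outside varied more between libraries than the level inside.

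Outside PECAM1 barcodes PDGFB was 10.4-fold higher at E28 than at E24 (7.03 to 15.75), 2.81-fold lower at E31 than at E28 (2.11 to 3.775) and 2.95-fold higher at E37 than at E31 (2.17 to 4.04). Inside them the matching ratios were 1.43 (0.953 to 2.17), 0.703 (0.477 to 1.03) and 1.49 (0.949 to 2.32), in the same directions but with intervals that include 1. PECAM1 barcodes held 58.1% of the PDGFB UMIs at E24 (46.1% to 69.5%), 27.0% at E28, 43.4% at E31 and 23.8% at E37, in 3.14% to 5.74% of barcodes. A UMI of PDGFB was found in 8.98% to 10.5% of PECAM1 barcodes and in 0.291%, 3.35%, 1.07% and 1.90% of the others. At E37 a single barcode held 9 of the 36 UMIs, and without it the ratio was 3.81 (2.41 to 5.83). A further 16 of the 36 came from the 21 barcodes of cluster 26 (GJA5, GJA4 and EDN1), which all held PECAM1, while the 175 barcodes of the endothelium-like cluster 0 held 11 in all, with and without PECAM1.

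Endothelial markers were higher in PECAM1 barcodes (11 of 11 in each library), as were those of macrophages (8 of 8), which also carry PECAM1. Of PECAM1 barcodes, 67.4% to 73.05% fell into the endothelium-like cluster of their library. PDGFB was the 1 PDGF gene past the fold upward in each library, beside 10.1%, 9.22%, 9.51% and 9.87% of all genes. The other 4 genes were all past it downward at E24, E28 and E31, and 3 were at E37, beside 11.4%, 17.0%, 13.5% and 17.0% of all genes. PDGFRB was 2.47-fold, 4.80-fold, 4.14-fold and 4.89-fold lower, PDGFRA 4.46-fold, 4.34-fold, 11.9-fold and 3.92-fold lower, and PDGFC 2.84-fold, 3.24-fold, 2.99-fold and 3.88-fold lower. The exception was PDGFA at E37, at 3.84 CPM inside and 5.37 outside (ratio 0.716, 0.323 to 1.39).

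ACTA2 barcodes did not show 1 pattern through the stages. PDGFRB stood at 22.55 CPM inside and 16.8 outside at E24, 38.5 and 32.6 at E28, 20.1 and 27.8 at E31, and 140.5 and 75.6 at E37. It was higher inside at E24 (ratio 1.34, 1.16 to 1.54) and E37 (1.86, 1.59 to 2.15), lower at E31 (0.723, 0.567 to 0.910), and at E28 the interval spanned 1 (0.947 to 1.46). The barcodes behind these values were of different kinds. At E31 the largest sources were cluster 11 (leading genes CCL26, NMNAT2 and ADGRG2) with 76 of 287 barcodes and cluster 0 (CITED1, EYA1 and HOXB1) with 72, whereas at E37 the smooth muscle and pericytes-like cluster 15 gave 71 of 160.

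With ACTA2 and at least 2 other smooth muscle markers in the same barcode, the PDGFRB ratio was 1.55, 1.90, 1.23 and 2.03, above 1 in all 4 libraries. In barcodes with ACTA2 and none of the other 5 marker genes, however, the PDGFRB ratio at E24 was below 1. PDGFRA was lower inside at E28 (1.25 CPM against 6.12, from 3 UMIs) and E31 (3.18 against 6.66). The E31 difference was not seen in barcodes with ACTA2 and at least 2 others of its list (ratio 1.01) or in those with ACTA2 and none of the other 5 marker genes (1.05). PDGFA and PDGFC were lower inside at E24, with ratios of 0.702 and 0.723. They were higher at E28 (1.33 and 1.43), E31 (1.92 and 1.61) and E37 (2.54 and 2.44), except that with at least 2 other smooth muscle markers PDGFA at E28 was at 0.874 times the rest. Past the fold upward were 0, 0, 0 and 3 of 5 genes, beside 2.29%, 1.99%, 2.04% and 5.00% of all genes. The 3 at E37 were PDGFA, PDGFC and PDGFB, and PDGFB rested on the single barcode with 9 of 12 UMIs. Without it the PDGFB ratio was 0.634 (0.129 to 1.89). Past the fold downward were 1, 1, 1 and 0 genes, beside 5.30%, 8.93%, 7.73% and 8.70% of all genes.

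PAX1 barcodes carried more PDGFRB in every library, more PDGFRA in 3 of 4, and less PDGFA at E24 and E28. They numbered 449 at E24 but only 35, 51 and 14 later, and sclerotome markers were higher in them (7 of 7, 5 of 6, 4 of 6 and 3 of 5 tested). PDGFRB stood at 41.6 CPM inside and 16.1 outside at E24, 80.4 and 32.5 at E28, 73.9 and 27.1 at E31, and 172 and 77.5 at E37. The ratios of 2.58 (2.23 to 2.97), 2.48 (1.69 to 3.51), 2.73 (1.92 to 3.755) and 2.22 (1.24 to 3.67) overlapped. PDGFRA ratios were 1.64 (1.18 to 2.24), 2.57 (0.936 to 5.645), 3.67 (1.88 to 6.48) and 4.82 (1.31 to 12.45, from 4 UMIs).

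PDGFB was at 0 UMIs in PAX1 barcodes of every library. At E24, where PDGFB was at 0.673 CPM outside, 0 UMIs taken as 3 counts allow at most 0.836 times that level. The exact upper limit of 0.691 CPM lies above the level outside, so an equal level is not excluded. The later groups were too small for a bound below the rest. PDGFA at E24 was at 5.25 CPM inside and 18.1 outside (3.46-fold lower, 2.38 to 5.21). Past the fold upward were 1, 2, 2 and 2 of 5 genes, in each case receptors, beside 1.79%, 6.79%, 5.24% and 13.6% of all genes. Downward were 2, 2, 1 and 2 genes, PDGFA or PDGFB, beside 16.0%, 27.0%, 23.7% and 39.0% of all genes. PDGFB entered each of these counts at 0 UMIs inside, as did PDGFA at E37. Those entries do not show a level below the rest. PDGFA at E28 was at 1 UMI inside.

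KRT19 barcodes differed with stage, in what they held and in the PDGF genes. PDGFA was 1.86-fold higher inside at E24 (1.67 to 2.07) and 2.57-fold at E37 (1.93 to 3.41), with ratios of 0.945 and 1.08 and intervals across 1 between. In barcodes with KRT19 and none of the other 5 marker genes the E24 ratio was 0.831, on the other side of 1. PDGFRB was higher inside at E24 (18.5 CPM against 15) and lower at E28 (23.2 against 35.8), E31 (17.7 against 30.7) and E37 (45.4 against 86). PDGFRA was higher inside at E24 (5.77 against 3.94) and lower at E37 (6.24 against 10.5). Markers of gut and nephric duct epithelium were higher in KRT19 barcodes (10 of 11, 5 of 10, 7 of 10 and 4 of 5 tested). Those of coelomic epithelium were higher in 3 of 7, 3 of 8, 4 of 8 and 7 of 8. At E24 mesenchyme markers were higher too (7 of 8), and from E28 on erythroid markers were (9 of 9 in each). The part of these in the ratios was not tested. Past the fold upward were 0, 0, 0 and 1 of 5 genes, the 1 being PDGFA, beside 7.99%, 1.98%, 1.92% and 3.48% of all genes.

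LHX9 barcodes numbered 15, 142, 67 and 619, and of the other gonadal markers 1 of 6, 0 of 4, 0 of 4 and 5 of 6 tested were higher in them. At E37 coelomic epithelium markers were higher too (8 of 9, summing to 882 CPM inside and 287 outside), EMX2 and WT1 being on both lists. At E24, 12 of the 15 barcodes were in cluster 13 (GABRP, VTCN1 and WFDC2). PDGFC stood at 70.2 CPM inside and 29.97 outside at E37, a ratio of 2.34 (2.07 to 2.65), and was found in 39.1% of LHX9 barcodes against 18.1% of the others. These 619 barcodes, 11.7% of the library, held 24.55% of its PDGFC UMIs. Neither receptor differed there beyond counting error, with 9.39 against 9.64 CPM for PDGFRA (0.699 to 1.33) and 77.95 against 77.7 for PDGFRB (0.899 to 1.12).

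At E28 and E31 PDGFC in LHX9 barcodes was at 43.2 and 40.9 CPM, 1.40-fold (1.12 to 1.74) and 1.35-fold (0.941 to 1.87) over the rest. PDGFA was lower inside at E28 (10.6 against 30.04 CPM) and at E31 (12.5 against 25.8). Past the fold upward were 0, 1, 0 and 1 of 5 genes, beside 12.2%, 2.90%, 4.03% and 2.76% of all genes. They were PDGFB at E28, at 7.68 CPM from 16 UMIs against 3.55, and PDGFC at E37. Downward were 2, 1, 1 and 0 genes, beside 32.7%, 16.3%, 16.8% and 9.49% of all genes. The 2 at E24 were PDGFRA and PDGFB, both at 0 UMIs in 15 barcodes. That group was too small for a bound below the rest, so a lower level was not shown.

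**Figure D2:**
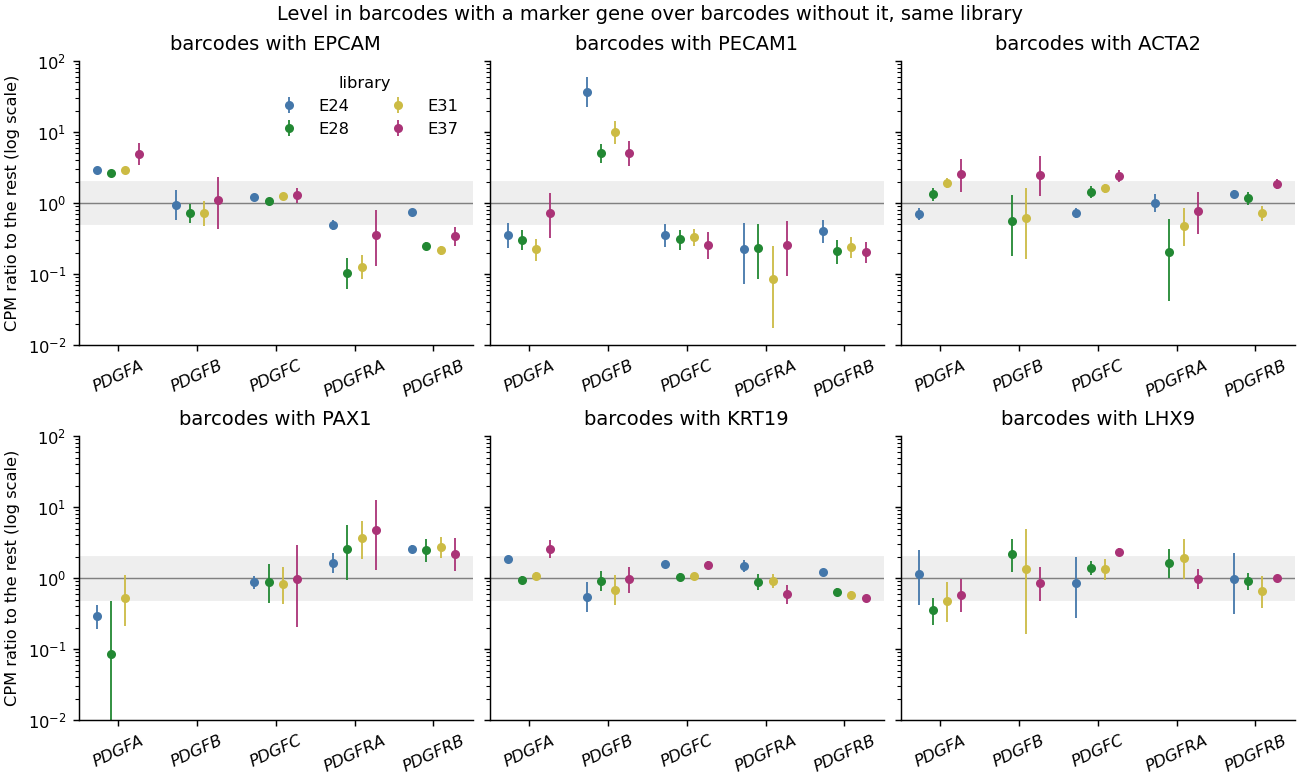
Ratio of the level in barcodes with a marker gene to that in the other barcodes of the same library, on a log axis, 1 panel per marker gene and 1 color per library. Points are ratios of summed UMIs with exact 95% counting intervals, the grey band marks changes under 2-fold, values with 0 UMIs on 1 side are not drawn, and the interval of PDGFA in PAX1 barcodes at E28 runs below the axis. PDGFA lies above the band for EPCAM and PDGFB for PECAM1 in all 4 libraries.

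Barcodes with none of the 6 marker genes held most of the receptor UMIs after E24. They were 21.1%, 47.4%, 50% and 69.3% of barcodes. Of PDGFRA UMIs they held 16.8%, 68.3%, 68.95% and 75.4%, and of PDGFRB UMIs 15.97%, 67.8%, 70.3% and 73.5%. At E37 the shares of both receptors were close to the 69.3% of barcodes. The receptor-bearing cells from E28 on were thus mostly outside the marker groups, and were described by clusters.

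Each library was clustered alone, without the 5 PDGF genes and the 6 marker genes, and clusters of at least 50 barcodes were compared (25, 21, 21 and 26). Clusters are called by number and their 3 leading genes, and by a cell type only where at least 3 of its markers were among the 10 leading genes. At E28 both receptors peaked in cluster 14 (CLDN11, TGFBI and EDNRA), with 113.7 CPM of PDGFRB (102.9 to 125.4) and 23.02 of PDGFRA (18.3 to 28.6), followed by cluster 11 (FAP, TGFBI and MEOX2) with 93.99 and 19.6. At E31 they peaked in cluster 9 (TAGLN, COL12A1 and COL3A1), with 94.1 and 23.45.

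At E24 and E37 the peaks of the 2 receptors were in different clusters. At E24 PDGFRA was highest in cluster 7 (HLX, FOXF1 and NKX2-3) at 12.1 CPM (9.735 to 14.85), which overlapped the next cluster. PDGFRB was highest in cluster 12 (SLC5A12, AQP1 and AGTR1) at 51.7 (42.7 to 62.1) and in the sclerotome-like cluster 6 at 49.2. At E37 PDGFRB was highest in cluster 8 (LUM, ALX1 and FREM1) at 200.8 CPM (185.3 to 217.3), overlapping the smooth muscle and pericytes-like cluster 15 at 182.4. PDGFRA was highest in clusters 4 (MEOX2, NDNF and DNER) and 3 (DKK1, DNER and BMP3) at 29.2 and 28.5. Cluster 24 (DGKB, LRRN1 and KCNAB1) held 169.9 CPM of PDGFRB and 2.36 of PDGFRA, from 1 UMI of the latter.

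Podocyte-like clusters, with markers of the filter cells of the kidney, held little PDGFRA at E28 and E31. This was not particular to them, as the median cluster stood at 0.324 CPM of PDGFRA at E28 and 0.736 at E31. At E28 cluster 10 held 56.7 CPM of PDGFRB, against 32.8 in the library, and 0.528 of PDGFRA, against 5.93. Cluster 13 held 81.4 CPM of PDGFRB and 0 UMIs of PDGFRA. At E31 cluster 5 held 23.6 and 0.736, so that PDGFRB stood below its library level of 27.4 there. At E37 cluster 27 held 26.3 CPM of PDGFRB from 15 UMIs and 3.51 of PDGFRA from 2. The interval of the latter (0.425 to 12.7) includes the 9.61 CPM of the library. LHX1, EPCAM and CALB1, which are also expressed in kidney tubules, were among its 10 leading genes. Of these clusters, those of E28 were above their library in PDGFRB. At E37 cluster 9 (PLA2G1B, OSR2 and STAR) held 38.8 CPM of PDGFRB and 0.986 of PDGFRA.

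Smooth muscle and pericytes-like clusters held both receptors, with 83.1 CPM of PDGFRB and 9.47 of PDGFRA at E28 and 182.4 and 8.94 at E37. Coelomic epithelium-like clusters also held both, with 42.4 and 17.4 at E28 and 39.7 and 14.7 at E31, so that both genes there stood above their library levels. The same was not seen for PDGFRB in clusters that led with BNC1 but had too few markers for the name. Cluster 2 at E28 (PARM1, BNC1 and LUM) held 25.98 CPM of PDGFRB (21.4 to 31.2) and 9.80 of PDGFRA, and cluster 3 at E31 (BNC1, ALDH1A2 and TNC) 24.1 (20.35 to 28.4) and 10.8. PDGFRB was below the library in the former, and the interval of the latter includes its library level. Endothelium-like clusters held little of either. PDGFRB was at 4.29, 1.62, 2.56 and 4.47 CPM in them, and PDGFRA gave 0, 1, 1 and 3 UMIs.

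**Figure D3:**
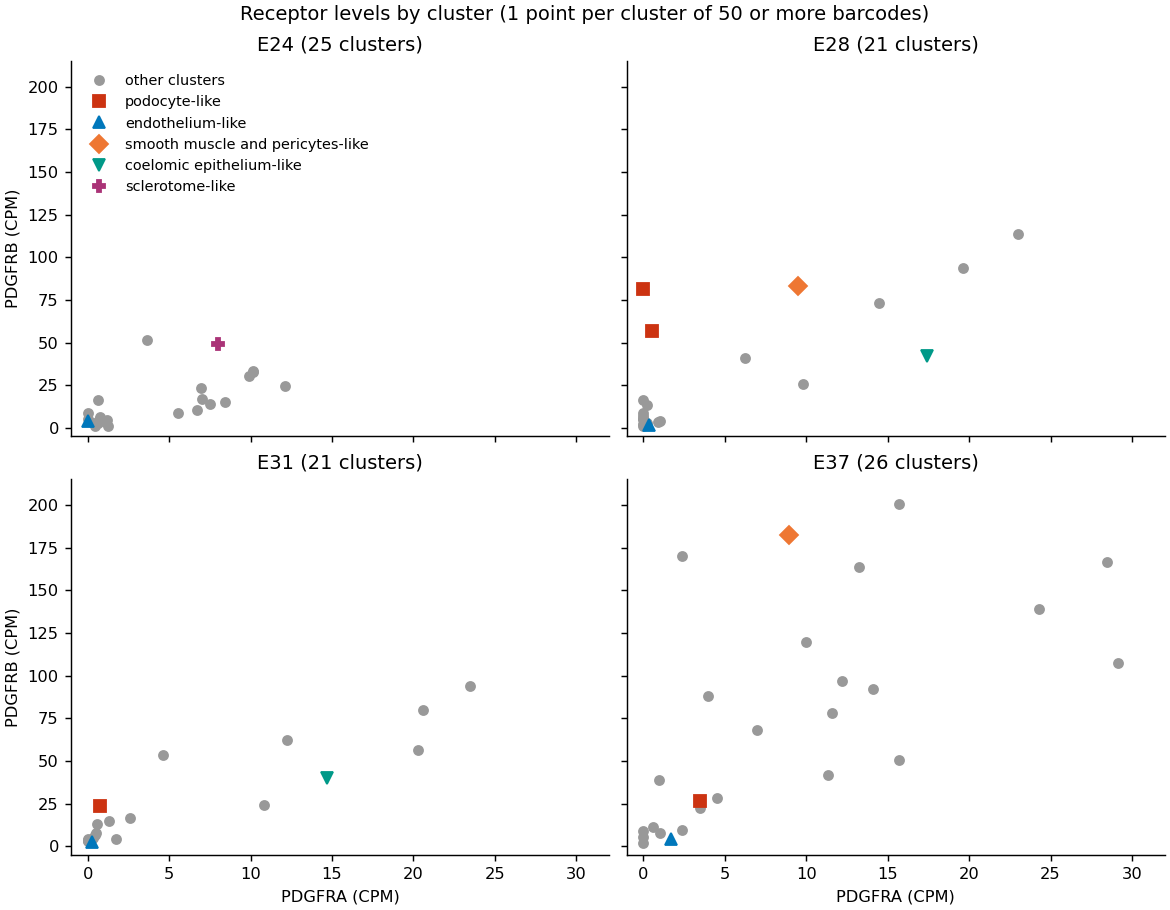
PDGFRB against PDGFRA in CPM, 1 panel per library and 1 point per cluster of 50 or more barcodes, with marked symbols for clusters named by their markers. The podocyte-like clusters of E28 lie at 56.7 and 81.4 CPM of PDGFRB with PDGFRA near 0, and the endothelium-like clusters lie near 0 on both axes.

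At E24, E28 and E31 EPCAM was found in 54.7% to 100% of the barcodes of the 2 clusters highest in PDGFA. Not every cluster rich in EPCAM was high in PDGFA. At E24 cluster 20 (KYNU, FGB and AGR3), with EPCAM in 98.9% of barcodes, stood at 7.19 CPM of PDGFA and cluster 12, with 86.75%, at 1.815, both below the library. At E24 cluster 10 (MIR205HG, IGFBP6 and TFAP2B) stood at 120.2 CPM (112.2 to 128.6) and held 41.8% of the library's PDGFA UMIs in 5.33% of its barcodes. The next, cluster 13 (GABRP, VTCN1 and WFDC2), stood at 60.3. At E28 cluster 6 (ADGRG2, CCL26 and LRP4) at 82.3 and cluster 20 (ATOH7, FBLN2 and AFAP1L2) at 80.03 overlapped. At E31 cluster 11 (CCL26, NMNAT2 and ADGRG2) stood at 66.1 (59.8 to 72.9). At E37 the podocyte-like cluster 27 stood at 45.6 (29.8 to 66.8) and cluster 17 (EYA1, CITED1 and KLHL14), with EPCAM in 14.4% of barcodes, at 33.6 (25.9 to 42.8). The podocyte-like clusters of E28 and E31 had similar levels, 35.4, 47.1 and 38.3. At E37 PDGFA was thus near the level of earlier podocyte-like clusters in this small group of 69 barcodes. The median cluster was at 2.42 CPM, against 28.8 at E31. The groups were not alike in EPCAM. It was found in 51 of the 69 barcodes, and in 27.1%, 18.7% and 40.6% of barcodes in the earlier podocyte-like clusters.

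Fewer clusters reached 2 times the library level for PDGFC (2, 0, 1 and 2) than for PDGFA (3, 4, 4 and 4). The highest cluster for PDGFC held 17.5% of the library's PDGFC UMIs at E24, and 3.04%, 4.50% and 8.78% later. These clusters made up 6.19%, 1.67%, 1.74% and 3.01% of barcodes. At E24 the highest was cluster 16 (DMRT2, FMOD and SPAG6) at 52.7 CPM (47.7 to 58.1). The smooth muscle and pericytes-like clusters were highest at E28, at 61.03 (46.3 to 78.9) and overlapping the next clusters, and at E37, at 110 (91.4 to 131.2). At E31 it was cluster 19 (CAV1, MYF6 and TGFB2) at 86.1 (69.95 to 104.8). At E37 clusters 11 (NR1H4, RXRG and LHX2), 17 (EYA1, CITED1 and KLHL14) and 10 (KRT18, PRSS35 and GATA4) followed at 76.3, 68.7 and 65.5. Endothelium-like clusters were low in PDGFC, at 5.43, 4.53, 5.12 and 3.91 CPM.

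PDGFB was highest in the endothelium-like cluster at E24 (12.3 CPM, 8.89 to 16.55), E28 (17.8, 13.4 to 23.2) and E31 (12.04, 8.84 to 16.0). At E37 it was not, among clusters of at least 50 barcodes. Cluster 1 (SOX2, ERBB3 and INSC) stood at 23.8 CPM (17 to 32.4) and held 26.5% of the library's PDGFB UMIs in 3.03% of its barcodes, and the neural crest and glia-like cluster 19 stood at 18.97 (12.6 to 27.4). The endothelium-like cluster 0 was at 6.145 (3.07 to 11). Cluster 26 stood above all of these at 90.75 (51.9 to 147.4) from 16 UMIs, with PECAM1 in all of its 21 barcodes. It was too small for this ranking, and was picked once its values had been seen. The macrophage-like cluster 16 was at 13.2, of which 9 of 11 UMIs came from the single barcode named above, and stood at 2.43 (0.294 to 8.78) without it. SOX2 and ERBB3 are genes of neural crest derived glial precursors. At E28 the second cluster for PDGFB was cluster 9 (DLK1, DES and TNC) at 9.40 (6.025 to 13.99).

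**Figure D4:**
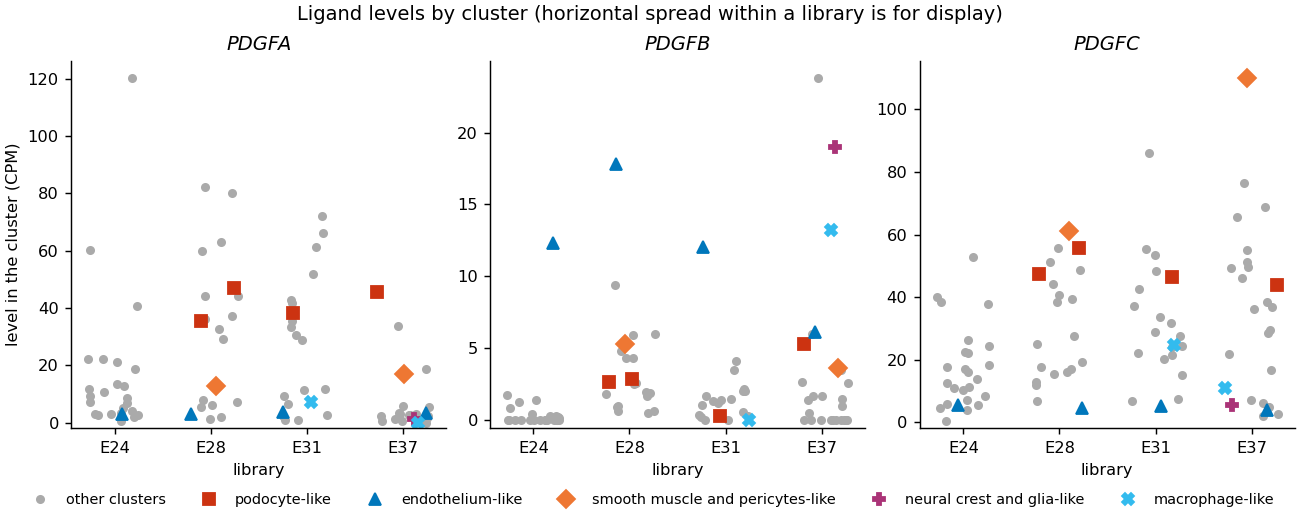
Ligand levels in CPM by cluster, 1 panel per gene with its own axis and 1 column per library; each point is a cluster of 50 or more barcodes, and marked symbols are clusters named by their markers. The endothelium-like clusters lead for PDGFB at E24, E28 and E31 with 12.04 to 17.8 CPM, and at E37 lie below cluster 1 at 23.8, while cluster 26 with 21 barcodes, at 90.75, is not drawn. The macrophage-like cluster at E37 rests on 1 barcode.

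The receptors were found together in 143, 147, 186 and 170 barcodes. PDGFRA was found in 557, 312, 417 and 351 barcodes and PDGFRB in 1654, 1275, 1443 and 2005. Of the PDGFRA barcodes, 25.7% (22.1% to 29.5%), 47.1% (41.5% to 52.8%), 44.6% (39.8% to 49.5%) and 48.4% (43.1% to 53.8%) also held PDGFRB. Of barcodes without PDGFRA, 14.99%, 24.2%, 20.1% and 37.2% did. PDGFRB was thus found more often beside PDGFRA in each library, and joint barcodes were 1.65, 1.83, 2.06 and 1.28 times the product of the single shares.

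Depth and cell type both touch this count. After thinning to 2000 UMIs only 6, 6, 18 and 17 joint barcodes were left. The thinned share of PDGFRA barcodes with PDGFRB was 6.19%, 8.22%, 18.75% and 15.7%, against 3.33%, 6.30%, 5.67% and 15.8% without PDGFRA. Only at E31 did the interval (11.5% to 28%) lie above the share without PDGFRA. When the product of the shares was taken within each cluster and summed, joint barcodes were 1.21, 0.967, 1.13 and 1.004 times that sum, and 1.245, 0.587, 1.47 and 0.678 times after thinning. With all UMIs, within clusters, the receptors were therefore found together 0.967 to 1.21 times as often as their shares there give. At E37 joint barcodes were not above the product at all after thinning, with a ratio of 0.998.

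By marker gene the joint barcodes were few. They numbered 14, 1, 10 and 4 with ACTA2, 1, 3, 1 and 2 with PECAM1, 20, 3, 6 and 4 with PAX1, 109, 29, 34 and 19 with KRT19, 0, 9, 3 and 16 with LHX9, and 49, 8, 13 and 2 with EPCAM. At E24 PAX1 barcodes with PDGFRA held PDGFRB in 52.6% (35.8% to 69.0%), and those without it in 37.5%, so the interval included the latter. At E31, 10 of 12 ACTA2 barcodes with PDGFRA also held PDGFRB (83.3%, 51.6% to 97.9%), against 16.4% of those without, but after thinning 1 of 4 did. At E37 it was 4 of 10 (40%, 12.2% to 73.8%), against 62.7%. At E37 the shares with LHX9 were 37.2% (23.0% to 53.3%) and 41.5%.

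**Figure D5:**
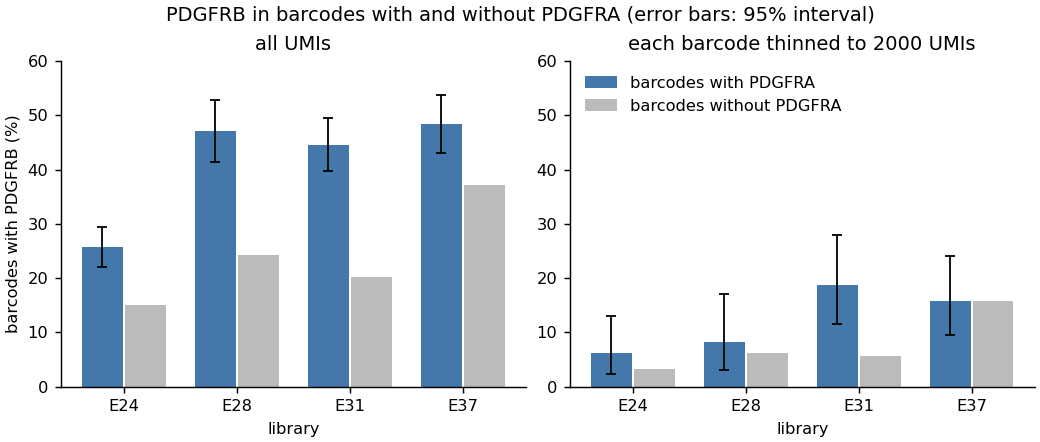
Percent of barcodes with a UMI of PDGFRB among those with PDGFRA (blue) and without it (grey) in each library, from all UMIs on the left and after thinning on the right. Error bars are exact binomial 95% intervals. The blue bars are higher on the left in all 4 libraries, and on the right the grey bar lies below the blue interval only at E31.

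With all UMIs, PDGFRA was found less often in barcodes with PDGFA, the ligand, than in the others at E24, E28 and E31. Of PDGFA barcodes 3.66% (2.72% to 4.81%), 1.43% (0.819% to 2.31%), 2.17% (1.45% to 3.12%) and 3.24% (1.20% to 6.925%) held PDGFRA. Of barcodes without PDGFA, 5.46%, 7.70%, 7.25% and 6.76% did. The interval lay below the share without PDGFA at E24, E28 and E31, and included it at E37. After thinning, 3, 0, 0 and 0 barcodes held both. The 3 at E24 were 0.935 times the product of the single shares, so no separation was detectable there at equal depth. The 0 at E28 and E31 allow PDGFRA in up to 1.36% and 1.02% of PDGFA barcodes (exact 95% limits), below the 1.555% and 1.53% without PDGFA. At E37 the limit of 6.85% was above the 2.06% without.

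PDGFRA was found in 6.14%, 6.03%, 5.60% and 6.71% of PDGFC barcodes and in 5.06%, 6.38%, 6.48% and 6.62% of the others. PDGFB and PDGFRB were found together in 6, 45, 25 and 11 barcodes. At E37, 9.24% of PDGFB barcodes held PDGFRB (4.705% to 15.9%) against 38.6% of the others, whereas at E28 and E31 the shares were 24.2% and 25.7%, and 23.4% and 21.7%. The ligands PDGFA and PDGFC shared barcodes 1.67, 1.43, 1.60 and 1.81 times as often as the product of their shares, and 1.89, 1.43, 1.68 and 2.84 times after thinning.

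Over the 93 clusters, Pearson's r of log2(CPM + 1) was computed between each PDGF gene and 12660 genes, as a description without a test. The clusters of a library share its depth and processing. The genes most like PDGFRA were PCOLCE (0.852), S1PR3 (0.827), CLMP (0.820), TWIST1 (0.820) and PTX3 (0.806). For PDGFRB they were CD248 (0.918), COL1A1 (0.892), IL11RA (0.862), DDR2 (0.859) and CDH11 (0.859), and the r between the receptors was 0.796. PDGFA was most like TSTD1 (0.849), MAL2 (0.810), CDS1 (0.806), SPINT2 (0.801) and GYLTL1B (0.796), and its r with EPCAM was 0.73. PDGFC was most like ARID5B (0.704), GPC3 (0.701), VASN (0.697), EPHB6 (0.690) and BMP4 (0.677). PDGFB had lower values, with PCDH1 (0.663), MAP3K11 (0.654), C12H2orf88 (0.619), C9H10orf10 (0.619) and AHR (0.615) first and PECAM1 at 0.46. Between ligand and receptor, r was -0.41 for PDGFA with PDGFRA, 0.27 for PDGFC with PDGFRA and -0.12 for PDGFB with PDGFRB.

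Of 40 further genes of the pathway, 36 were analysed here. From E24 to E28, 6 were past the fold upward and 1 downward, with a median log2 ratio of 0.56 where all genes had 0.23. Over all genes tested 16.4% were higher and 6.06% lower, so the 6 of 36 were near the background. The higher ones were EGR1, FOS and JUN, the protease gene PLAU (3.64 to 18.9 CPM), the ligand gene PDGFD (2.51 to 7.70) and the co-receptor gene NRP1 (33.75 to 98.4), and the lower one was MYC (45.7 to 20.3). From E28 to E31, 0 were higher and EGR1, FOS and JUN lower, where 1.23% of all genes were higher and 3.06% lower. From E31 to E37, 5 were higher and 2 lower, where 8.78% and 8.05% of all genes were. The higher ones were EGR1, FOS, JUN, SPARC, which encodes a matrix protein that binds PDGF (389.9 to 781.4 CPM), and PLAT, which encodes a protease that activates PDGF-C (23.3 to 95.02). PLAU, whose protease activates PDGF-D, was 11.35-fold lower (17.2 to 1.52 CPM), and PDGFD 2.002-fold lower (8.47 to 4.23).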

How the data were processed

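The deposited matrices hold raw UMI counts per gene and barcode, made with Cell Ranger 2.1.0 per the submitters' processing notes. The labels' protocols name both v2 and v3 chemistry, and which library had which is not given. Build and annotation: not given in the sources used here. Genes, marker genes and lists were chosen with earlier results of these data known. A row without a name held 0 UMIs. Barcodes under 500 genes (0, 0, 0 and 5) and Scrublet calls (0, 64, 7 and 4) were left out. Under 0.5% were called in E24, E31 and E37, so doublets may remain there, and why so few were called was not tested. As an alternative, 906, 202, 355 and 225 top-scoring barcodes were removed.

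UMIs were summed per library, marker group or cluster. Intervals are exact at 95% (Poisson for levels, Clopper-Pearson for shares, conditional binomial for ratios). Sums of 0 were bounded at 3 counts. For shares at equal depth, each barcode was thinned to 2000 UMIs, which left none out. Clustering (scanpy 1.11.5, Leiden resolution 1, 2000 variable genes, 30 components, 15 neighbours) left out the PDGF and marker genes. Names needed at least 3 markers among the 10 leading genes and no other list with as many, a rule set after the data were seen. Leading genes are those with the highest ratio to the rest of the library (prior 5 CPM) in at least 20% of barcodes. Genes most alike are the first 5 by r among genes with at least 200 UMIs. Pathway genes were named when past 2-fold, up to 6 per comparison. The ratio step was tested on simulated data. UPK3B, GYPB, CYP17A1, CYP11B1, FURIN, A2M, STAT5A and PTPRJ were not analysed here. A pair of cluster results at E31 is not reported here.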

Additional observations from a re-analysis of the deposited data

Results flagged for a closer look

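For 5 genes and marker groups the ratio of marker barcodes to the rest went in opposite directions in different libraries, with both intervals away from 1. The differences between libraries were not tested. In ACTA2 barcodes PDGFRB was at 1.86 times the rest at E37 (1.59 to 2.15) and at 0.723 at E31 (0.567 to 0.910). PDGFA there was at 2.54 at E37 and 0.702 at E24, and PDGFC at 2.44 at E37 and 0.723 at E24. In KRT19 barcodes PDGFRA was at 1.465 at E24 (1.215 to 1.775) and 0.596 at E37 (0.435 to 0.803), and PDGFRB at 1.23 at E24 and 0.528 at E37. The barcodes that carry each marker gene also differed. The smooth muscle and pericytes-like cluster gave 44.4% of ACTA2 barcodes at E37, and clusters 11 and 0 gave 26.5% and 25.1% at E31. KRT19 was in 62.85% of barcodes at E24 and 17.1% at E37. The part of these in the ratios was not tested.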

How the results depend on the processing

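No paired analysis was possible because each stage has 1 library. Of the stage ratios, marker ratios and receptor shares behind the comparisons, 45 of 45 moved by less than counting error with all deposited barcodes and 45 of 45 with doublets removed at the expected rate. The same held for 15 of 15 stage ratios with totals free of globin and ribosomal protein genes. Putting back all deposited barcodes could move little, as few had been left out and none at E24. Other settings moved more of these values. In barcodes with only 1 of the 6 marker genes, 11 moved and 11 did not. With at least 2 UMIs of the marker gene 5 moved and 14 did not, and with 2 others of its list 5 and 17. At Leiden resolution 2, 6 cluster results moved and 14 did not. Among values not behind the comparisons, doublet removal moved 5 and left 80. The cause of these moves and of those below was not tested.

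As a mean of the CPM of each barcode, the E28 to E24 ratio was 2.13 for PDGFRB and 1.508 for PDGFA, and PDGFB in PECAM1 barcodes at E37 was 7.841 times the rest. With at least 2 UMIs of the marker gene, PDGFRB in ACTA2 barcodes was at 1.549 (E24), 2.085 (E28) and 1.129 (E31), and PDGFA in EPCAM barcodes at 3.982 (E24) and 7.19 (E37). In barcodes with only 1 of the 6 marker genes, PDGFRB with ACTA2 was at 0.8953 (E24), 1.609 (E28) and 1.708 (E31), PDGFA with KRT19 at 0.8308 (E24), 0.6049 (E28) and 0.7358 (E31), PDGFRA with LHX9 at 2.684 (E28) and 1.375 (E37), and PDGFA with EPCAM at 1.779 (E24), 3.287 (E31) and 3.051 (E37). With 2 other markers of the list required, PDGFRB with ACTA2 was at 1.546, 1.902 and 1.231 (E24 to E31), PDGFA with KRT19 at 2.125 (E24) and PDGFA with EPCAM at 3.279 (E24). So the ACTA2 ratio of PDGFRB at E31 turned above 1 under each stricter choice. In barcodes with no other marker gene, the ACTA2 ratio of PDGFRB at E24 fell below 1, as did the KRT19 ratio of PDGFA at E24. With only 1 marker gene or with 2 others, PDGFRA in ACTA2 barcodes at E31 turned to 1.054 and 1.011, and PDGFB at E37 to 0.7588 and 0.739.

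The share of PDGFRA barcodes with PDGFRB was 6.186%, 8.219%, 18.75% and 15.74% after thinning, and 5.556%, 26.53%, 27.27% and 12.9% with at least 2 UMIs of each receptor. Over the product of shares, joint barcodes were at 1.299 (E28), 3.199 (E31) and 0.9982 (E37) after thinning, and at 2.149, 2.844, 4.526 and 0.9099 with at least 2 UMIs. Within clusters they were at 1.211, 0.9673, 1.132 and 1.004. With genes of at least 10 UMIs, 2.456% of all genes were higher and 6% lower at E31 than at E28. Marker groups under 20 barcodes, among them LHX9 at E24 and PAX1 at E37, gave no value in some alternatives. With no replicates, no difference between stages could be set against sample spread.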

Other observations

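PDGFD, the ligand of PDGFRβ that is outside the 5 genes, was at its highest in podocyte-like clusters at E28 and E37. Its level was 37.1 CPM (24.2 to 54.4) in the podocyte-like cluster 13 at E28, 27.97 in the podocyte-like cluster 10, 27.2 in the podocyte-like cluster 5 at E31 and 28.05 (16.03 to 45.5) in the podocyte-like cluster 27 at E37. Cluster 27 also had LHX1, EPCAM and CALB1 among its 10 leading genes. At E31 the highest level, 40.02 CPM (33.2 to 47.9), was in cluster 16 (CALB1, ALDH1A1 and EN2). At E24 no cluster was podocyte-like, and the highest levels were 10.03 (5.62 to 16.55) in cluster 18 (HCRT, TPPP3 and FOXA2) and 8.57 in the endothelium-like cluster 0. Over whole libraries PDGFD stood at 2.51, 7.70, 8.47 and 4.23 CPM.

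PDGFRL, a receptor-like gene without a kinase domain, stood at 5.71, 6.275, 6.95 and 9.61 CPM in the 4 libraries. It was highest at E24 in cluster 18 (HCRT, TPPP3 and FOXA2) at 49.5 CPM (38.9 to 62.1) and at E37 in cluster 23 (EMX2, RSPO1 and PARM1) at 64.03 (47.2 to 84.9). PDGFRA in that E37 cluster was at 4.002 CPM from 3 UMIs, and PDGFRB at 88.05.

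At E37 a cluster too small for the comparisons, cluster 26 with 21 barcodes (GJA5, GJA4 and EDN1), held 16 UMIs of PDGFB, or 90.75 CPM (51.9 to 147.4). PDGFB was found in 52.4% of its barcodes and PECAM1 in 100%. GJA5, GJA4 and EDN1 are known from arterial endothelium. The cluster was picked out after its values were seen.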
